A study of Homo sapiens with 23 samples.

Results

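The genes described here are 10 of the genes of antigen presentation by major histocompatibility complex (MHC) class II: CIITA, CD74, HLA-DRA, HLA-DRB1, HLA-DPA1, HLA-DPB1, HLA-DQA1, HLA-DQB1, HLA-DMA and HLA-DMB. They were taken by name from the 58592 genes with values, and all 10 were among the 17743 genes that passed the filter on low counts. RNA was sequenced from 23 libraries of SUDHL5, an established human line of diffuse large B cell lymphoma. CDK-TCIP1, a bivalent molecule that joins a ligand of the repressor BCL6 to a ligand of the transcriptional kinase CDK9, was given at 10 nM for 2 h (n = 2 libraries), 30 nM for 2 h (n = 4), 100 nM for 2 h (n = 3) and 30 nM for 4 h (n = 3). The compounds Neg1 and Neg2 were given at 30 nM for 2 h and for 4 h (n = 2 each), and DMSO alone for 4 h (n = 3). DMSO is the solvent of the compounds, and its libraries were of 4 h only, so in comparisons of 2 h libraries with DMSO the time was unequal too.

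MHC class II molecules are pairs of an alpha and a beta chain that carry peptides from endosomes to the surface of B cells, dendritic cells and macrophages, where CD4+ T cells read them. CIITA is the co-activator that switches the family on: it binds no DNA itself and docks on a complex of the RFX proteins, CREB and NF-Y that sits on the short conserved boxes upstream of each class II gene. CD74, the invariant chain, fills the groove of new molecules until HLA-DM, made of the HLA-DMA and HLA-DMB chains, exchanges its remnant for peptide. B cells normally keep class II high, and its loss is a known feature of some diffuse large B cell lymphomas.

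The upstream sequences of 5 of these genes are shown because those boxes are where the CIITA complex is known to sit, and because the genes differed in the comparisons below: CD74, HLA-DRB1 and HLA-DQB1 were higher in most CDK-TCIP1 comparisons, whereas HLA-DMA and HLA-DMB mostly did not pass the test. Each run of 300 bases is from RefSeq on GRCh38.p14, holds 250 bases before and 50 bases after the annotated start, and reads 5′ to 3′ along the gene. Capitals mark matches on either strand to CCAAT (the core bound by NF-Y) and CTGATTGG (a longer form, which holds CCAAT on the reverse strand). They also mark matches to CTGATGATG, which spans the junction of the X1 and X2 boxes, known to bind RFX and CREB. The 3 strings were chosen after these sequences had been read.
CD74 (chr5:150412861-150413160, minus strand): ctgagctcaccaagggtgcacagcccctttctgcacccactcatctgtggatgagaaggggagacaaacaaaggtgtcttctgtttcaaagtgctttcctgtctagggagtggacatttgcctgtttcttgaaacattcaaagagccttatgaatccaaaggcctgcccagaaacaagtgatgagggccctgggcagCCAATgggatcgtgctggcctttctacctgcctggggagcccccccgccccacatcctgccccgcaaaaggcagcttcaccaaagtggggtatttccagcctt
HLA-DRB1 (chr6:32589799-32590098, minus strand): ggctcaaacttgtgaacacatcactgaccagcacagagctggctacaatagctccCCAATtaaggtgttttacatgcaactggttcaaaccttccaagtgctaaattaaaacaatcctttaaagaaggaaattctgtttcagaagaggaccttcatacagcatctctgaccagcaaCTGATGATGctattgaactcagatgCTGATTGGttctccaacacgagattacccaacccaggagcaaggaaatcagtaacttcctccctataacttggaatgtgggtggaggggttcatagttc
HLA-DQB1 (chr6:32666608-32666907, minus strand): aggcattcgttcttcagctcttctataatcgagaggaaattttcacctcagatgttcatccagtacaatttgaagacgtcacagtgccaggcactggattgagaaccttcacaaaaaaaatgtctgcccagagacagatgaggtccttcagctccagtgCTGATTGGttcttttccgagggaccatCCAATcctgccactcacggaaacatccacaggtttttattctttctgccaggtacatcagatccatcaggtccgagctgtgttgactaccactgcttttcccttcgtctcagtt
HLA-DMA (chr6:32953048-32953347, minus strand): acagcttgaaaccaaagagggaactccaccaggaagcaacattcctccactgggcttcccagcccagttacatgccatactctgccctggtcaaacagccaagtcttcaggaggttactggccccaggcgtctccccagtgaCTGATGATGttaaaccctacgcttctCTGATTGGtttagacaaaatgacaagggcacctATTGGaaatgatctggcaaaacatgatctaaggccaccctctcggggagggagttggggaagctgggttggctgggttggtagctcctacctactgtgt
HLA-DMB (chr6:32940979-32941278, minus strand): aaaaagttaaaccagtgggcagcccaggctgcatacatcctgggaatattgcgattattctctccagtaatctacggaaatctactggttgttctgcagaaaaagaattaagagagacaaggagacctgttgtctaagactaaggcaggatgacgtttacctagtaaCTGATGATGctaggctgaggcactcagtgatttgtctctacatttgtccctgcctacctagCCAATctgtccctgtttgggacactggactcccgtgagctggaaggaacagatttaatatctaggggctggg
CCAAT was found in 7 of the 9 upstream entries that exist for 8 of these genes, and in 34.6% of all 35116 RefSeq promoters of this length. The entries without CCAAT were those of HLA-DPA1, which held none of the 3 strings. HLA-DPA1 was called higher at each dose for 2 h against DMSO (below). Whether the strings bear on any of the changes was not tested. CTGATTGG was found upstream of HLA-DRB1, HLA-DQB1 and HLA-DMA, and in 3.97% of all promoters. CTGATGATG was found upstream of HLA-DRB1, HLA-DMB and HLA-DMA, and in 0.271% of all promoters. These matches describe letters, and binding was not measured. CIITA and HLA-DRA are named here without an upstream sequence.

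On GRCh38, CIITA lies on chromosome 16 at 10866222 to 10943021 (plus strand), and CD74 on chromosome 5 at 150401637 to 150412929 (minus strand). The other 8 genes lie on chromosome 6, between the start of HLA-DRA at 32439842 and the end of HLA-DPB1 at 33087201. HLA-DPA1 and HLA-DPB1 overlap on opposite strands, HLA-DMA overlaps BRD2, and HLA-DQB1 overlaps an antisense gene of 0.795 CPM (read counts scaled to a common library total). Whether counting used strand is not given in the sources used here, so reads of such partners cannot be told apart. HLA genes vary between people, and reads were assigned to reference transcripts. HLA-DRB1 may also share reads with HLA-DRB5, its close copy.

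Libraries held between 17396484 and 26373153 estimated counts each. The mean correlation with the other libraries was lowest for CDK-TCIP1 100 nM replicate 1, at 0.9534, and was 0.9689 for Neg2 2 h replicate 1, against 0.9770 for the other Neg2 library of 2 h. The other CDK-TCIP1 libraries at 100 nM or for 4 h lay at 0.9658 to 0.9704, and all others reached up to 0.9818. CDK-TCIP1 100 nM replicate 1 and Neg2 2 h replicate 1 were left out together in 1 alternative. B cell markers were present in every library, with summed levels of 1793 to 2400 CPM over 6 genes. Markers of T and NK cells summed to 1.51 to 3.61 CPM, and those of myeloid and dendritic cells to 3.72 to 7.95 CPM. The labels do not say that replicates came from separate cultures, so the p-values reflect the spread of these libraries alone, which may be technical. In bulk RNA, fewer cells of a type and less RNA per cell cannot be told apart.

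Levels are given below as CPM after TMM scaling, which sets the typical gene level between libraries and so shows a gene relative to the others. A gene was called where the adjusted p of edgeR's quasi-likelihood test over all 17743 genes was under 0.05. Rises of the class II genes depend on this scaling. On the deposited TPM, the transcript abundance of kallisto that also corrects for length, the median tested gene lay at -0.11, -0.19 and -0.38 on the log2 scale at 10, 30 and 100 nM for 2 h, and at -0.10 at 30 nM for 4 h, relative to DMSO. On that unadjusted TPM scale CD74 at 100 nM lay at 0.07, HLA-DRB1 at 0.12 and HLA-DRA at -0.02, which is 0.45, 0.50 and 0.36 above the median gene. CIITA lay at -1.49 on the same scale, which is -1.11 against the median gene.

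Per length, CD74 was the most abundant of the 10 and CIITA the least. In DMSO libraries CD74 had 2101 ± 21.8 TPM (SD, n = 3). HLA-DRA, the invariable alpha chain of HLA-DR, had 689 ± 12.4 TPM. HLA-DPA1 followed at 194 ± 20.9 TPM, above HLA-DRB1 at 159 ± 4.7 TPM and HLA-DMA at 159 ± 7.64 TPM. HLA-DRB1 and HLA-DMA did not differ beyond their spread. HLA-DQA1 had 122 ± 10.6 TPM and HLA-DQB1 had 75.3 ± 13.3 TPM. HLA-DMB at 51.3 ± 4.85 TPM and HLA-DPB1 at 46.6 ± 12.4 TPM also overlapped, and CIITA had 14.9 ± 2.95 TPM. At 100 nM the lowest and highest genes were again CIITA at 5.31 ± 1.44 TPM and CD74 at 2205 TPM.

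**Figure D1:**
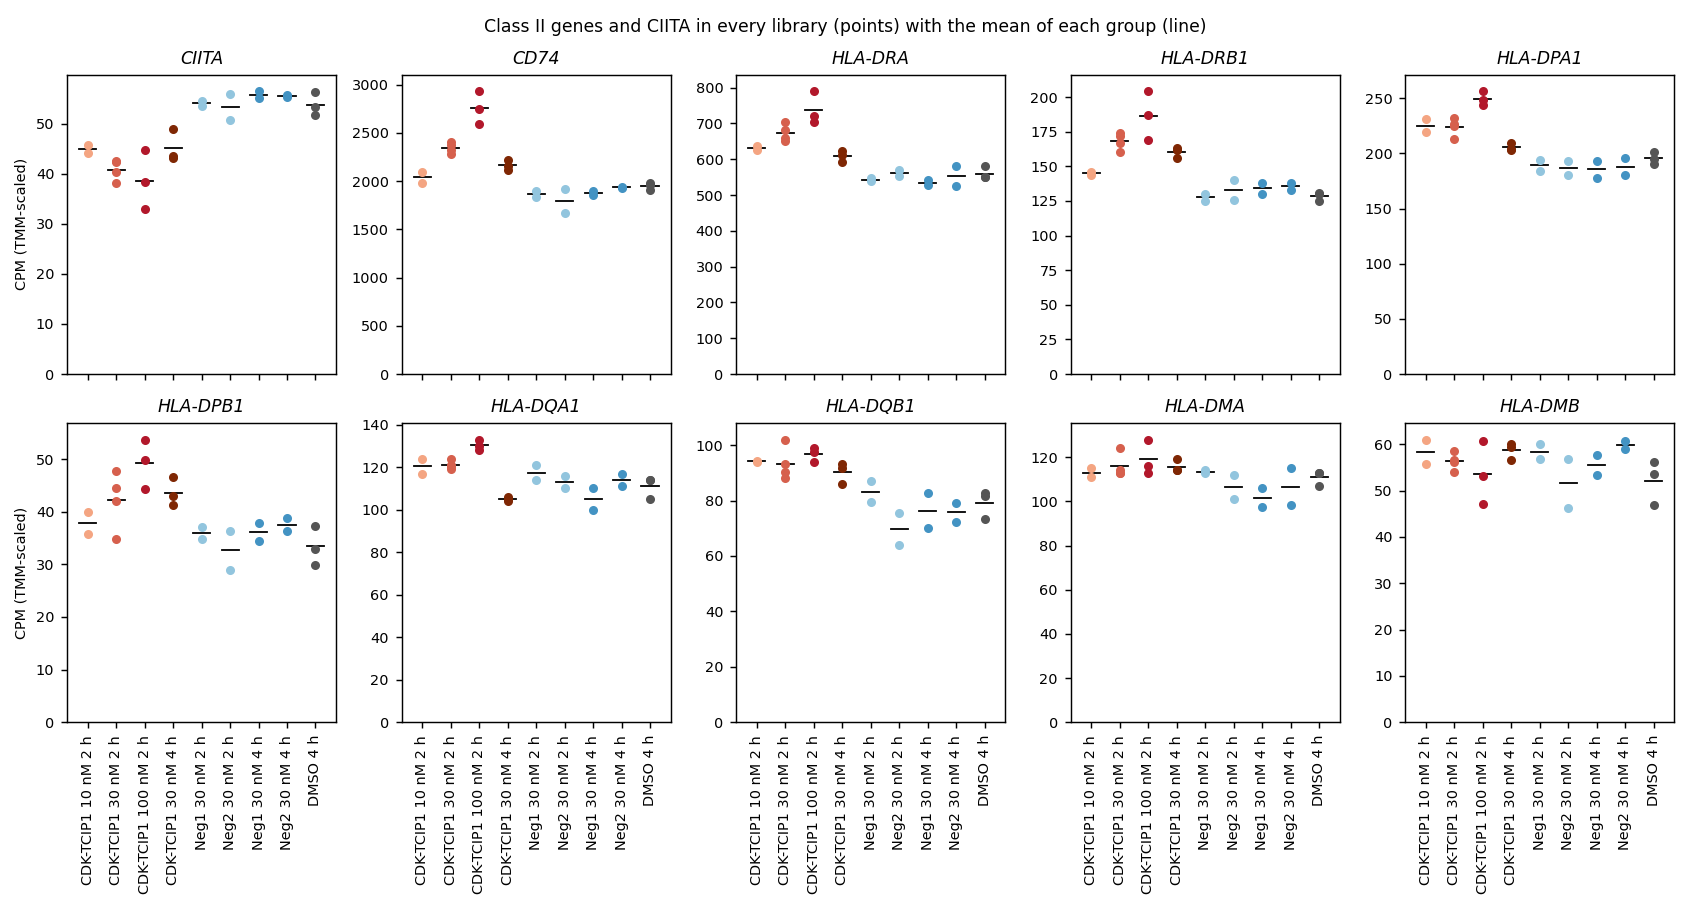
Level of each gene (CPM after TMM scaling, vertical axis, starting at 0) in each library (points) with the group mean (line), for the 9 groups along the horizontal axis. CIITA in the 12 CDK-TCIP1 libraries lay at 32.9 to 49.0 CPM, below the 11 libraries with Neg1, Neg2 or DMSO, whereas CD74, HLA-DRA, HLA-DRB1 and HLA-DPA1 lay above them.

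Relative to the typical gene, CIITA was lower and most class II genes were higher in cells treated with CDK-TCIP1. CIITA was below all 11 Neg1, Neg2 and DMSO libraries in all 12 CDK-TCIP1 libraries, at 32.9 to 49.0 CPM, against 50.7 to 56.4 CPM. CD74, HLA-DRA, HLA-DRB1 and HLA-DPA1 were above all 11 in all 12. Over all genes tested, 4.32% lay above and 5.75% below in this way. HLA-DQB1 was above them in 11 of 12, HLA-DPB1 in 10, HLA-DQA1 in 6, HLA-DMA in 4 and HLA-DMB in 2. Over the 9 group means, the log2 levels of CIITA and HLA-DRA had a Pearson r of -0.98, those of HLA-DRA and HLA-DPA1 one of 0.98, and those of CIITA and HLA-DMB one of 0.00. These correlations share libraries and their scaling, and describe 9 points. Values this high were also reached by genes outside the class II family, such as RPS7 with HLA-DRA (0.994).

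The comparison matched in time to DMSO was 30 nM CDK-TCIP1 for 4 h. There 4 of the 10 genes were called higher and 1 lower, and over all genes 17.5% were called higher and 19.3% lower. The median change of the 10 was 0.14 on the log2 scale, against 0.03 over all genes tested.

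CIITA had 43.5, 49.0 and 43.1 CPM in CDK-TCIP1 libraries at 4 h, against 56.3, 53.3 and 51.7 CPM in DMSO libraries. All 3 treated libraries were below all 3 DMSO libraries. The change was -0.25 ± 0.08 on the log2 scale (SE, adjusted p = 0.0177, edgeR's quasi-likelihood test). The call was lost without DMSO replicate 1 (-0.23), CDK-TCIP1 replicate 1 (-0.23) or CDK-TCIP1 replicate 3 (-0.22), and with counts scaled by transcript length (-0.35, adjusted p = 0.148).

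HLA-DRB1, the polymorphic beta chain of HLA-DR, had 162, 163 and 156 CPM in CDK-TCIP1 libraries at 4 h, against 125, 130 and 131 CPM in DMSO libraries. The groups did not overlap, and the change was 0.32 ± 0.06 on the log2 scale (adjusted p = 0.00011, edgeR). With HLA-DRB5 added, it was 0.34 (adjusted p = 5.27e-05). It was the only one of the 10 called with counts scaled by transcript length (0.30, adjusted p = 0.0012).

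CD74 had 2112, 2218 and 2154 CPM in CDK-TCIP1 libraries at 4 h, against 1976, 1907 and 1961 CPM in DMSO libraries. The change of 0.15 ± 0.05 (log2, adjusted p = 0.0165, edgeR) was small, and the groups did not overlap. It was lost without any 1 of the DMSO libraries (0.12 to 0.14) or without CDK-TCIP1 replicate 2 (0.13), and on unadjusted TPM it was -0.01. HLA-DPB1, the beta chain of HLA-DP, had 43.0, 41.3 and 46.6 CPM, against 37.3, 29.9 and 33.0 CPM in DMSO libraries. Its rise was 0.38 ± 0.11 (log2, adjusted p = 0.00557), and the call was lost without DMSO replicate 2 (0.30). HLA-DQB1, the beta chain of HLA-DQ, had 91.7, 93.3 and 85.8 CPM, against 82.8, 73.2 and 81.7 CPM in DMSO libraries. Its rise was 0.19 ± 0.07 (log2, adjusted p = 0.0484). That call was lost without any of the DMSO libraries or CDK-TCIP1 replicates 1 or 2 (0.12 to 0.21), and on unadjusted TPM the value was -0.07.

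The other 5 genes did not pass at 4 h. HLA-DRA had 611, 593 and 623 CPM in CDK-TCIP1 libraries, against 549, 550 and 581 CPM in DMSO libraries, a difference of 0.12 (log2, adjusted p = 0.0521, edgeR). The differences were 0.07 for HLA-DPA1, -0.08 for HLA-DQA1, 0.06 for HLA-DMA and 0.17 for HLA-DMB. Leaving out DMSO replicate 1 or DMSO replicate 2 left 2 calls each. Leaving out DMSO replicate 3, CDK-TCIP1 replicate 1 or CDK-TCIP1 replicate 2 left 3 each.

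At 2 h the changes from DMSO were measured at 3 doses. At 10 nM, 3 genes were called higher and 0 lower, where 5.93% of all genes were called higher and 7.12% lower. At 30 nM, 7 were higher and 1 lower, where 16.7% of all genes were higher and 17.6% lower. At 100 nM, 7 were higher and 1 lower, where 20.6% of all genes were higher and 22% lower. The median change of the 10 genes was 0.17, 0.22 and 0.32 (log2) at the 3 doses, against 0, 0.04 and 0.02 over all genes tested.

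CIITA had 45.7 and 44.1 CPM at 10 nM, 42.3, 40.3, 38.1 and 42.5 CPM at 30 nM, and 32.9, 44.7 and 38.3 CPM at 100 nM. All 9 of these libraries were below those of DMSO, at 56.3, 53.3 and 51.7 CPM. The change was -0.26 ± 0.09 at 10 nM (log2, adjusted p = 0.0656, not called here but called by DESeq2), -0.40 ± 0.08 at 30 nM (adjusted p = 0.000235) and -0.48 ± 0.08 at 100 nM (adjusted p = 4.36e-05, edgeR). Both calls held in every alternative tried with a test, between -0.56 and -0.36 at 30 nM and between -1.13 and -0.37 at 100 nM. Without CDK-TCIP1 100 nM replicate 1 and Neg2 2 h replicate 1, the change at 100 nM was -0.40.

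CD74 was called higher at 30 and 100 nM, and not at 10 nM. It had 1979 and 2098 CPM at 10 nM, 2377, 2400, 2280 and 2322 CPM at 30 nM, and 2928, 2748 and 2594 CPM at 100 nM, against 1976, 1907 and 1961 CPM in DMSO libraries. The groups at 30 and 100 nM overlapped neither each other nor DMSO. The change from DMSO was 0.07 at 10 nM (log2, not called), 0.27 ± 0.05 at 30 nM (adjusted p = 5.12e-05) and 0.50 ± 0.05 at 100 nM (adjusted p = 6.75e-09, edgeR). It was 0.43 at 100 nM without CDK-TCIP1 100 nM replicate 1 and Neg2 2 h replicate 1.

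HLA-DRA had 638 and 627 CPM at 10 nM, 650, 703, 660 and 681 CPM at 30 nM, and 789, 704 and 721 CPM at 100 nM, against 549, 550 and 581 CPM in DMSO libraries. Its rise was 0.18 ± 0.05 at 10 nM (log2, adjusted p = 0.0318), 0.27 ± 0.05 at 30 nM (adjusted p = 5.85e-05) and 0.40 ± 0.05 at 100 nM (adjusted p = 2.79e-07, edgeR). On unadjusted TPM the value at 100 nM was -0.02. HLA-DRB1 had 144 and 146 CPM at 10 nM, 167, 174, 160 and 172 CPM at 30 nM, and 204, 187 and 169 CPM at 100 nM, against 125, 130 and 131 CPM in DMSO libraries. It differed by 0.17 at 10 nM (adjusted p = 0.0891), and rose by 0.39 ± 0.06 at 30 nM (adjusted p = 5.25e-06) and by 0.54 ± 0.06 at 100 nM (adjusted p = 5.21e-08). In both HLA-DR chains every library of the 3 doses was above every DMSO library.

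HLA-DPA1, the alpha chain of HLA-DP, had 231 and 219 CPM at 10 nM, 213 to 232 CPM at 30 nM, and 256, 248 and 244 CPM at 100 nM, against 190, 195 and 201 CPM in DMSO libraries. It rose by 0.20 ± 0.06, 0.20 ± 0.05 and 0.35 ± 0.05 (log2, adjusted p = 0.0163, 0.00147 and 2.43e-06, edgeR). On unadjusted TPM the values at 30 and 100 nM were -0.07 and -0.04. HLA-DPB1 rose by 0.34 ± 0.10 at 30 nM (adjusted p = 0.00976) and by 0.56 ± 0.11 at 100 nM (adjusted p = 0.000113), and its difference at 10 nM was 0.18. HLA-DQA1, the alpha chain of HLA-DQ, rose by 0.13 ± 0.05 at 30 nM (adjusted p = 0.0407) and by 0.23 ± 0.05 at 100 nM (adjusted p = 0.000721), with 128, 130 and 133 CPM at 100 nM, against 105, 114 and 114 CPM in DMSO libraries. HLA-DQB1 rose by 0.25 ± 0.08, 0.24 ± 0.07 and 0.29 ± 0.07 (adjusted p = 0.046, 0.00964 and 0.00254) at the 3 doses. On unadjusted TPM HLA-DQB1 was at -0.06, -0.03 and -0.16, and HLA-DQA1 at 100 nM was at -0.03.

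Neither chain of HLA-DM was called against DMSO. HLA-DMA was at 0.03, 0.06 and 0.10 (log2) and HLA-DMB at 0.16, 0.11 and 0.04 at 10, 30 and 100 nM for 2 h. HLA-DMA had 128, 116 and 113 CPM at 100 nM, against 107, 113 and 113 CPM in DMSO libraries. HLA-DMB had 47.1, 60.7 and 53.1 CPM at 100 nM, against 46.9, 53.5 and 56.1 CPM in DMSO libraries. HLA-DMA at 100 nM lay just above DMSO in every library before rounding, and HLA-DMB overlapped.

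The calls at 10 nM depended on single libraries. None of the 10 genes was called without DMSO replicate 1, DMSO replicate 2 or either 10 nM library, and none with counts scaled by transcript length. At 30 nM for 2 h, the calls fell to 5 without DMSO replicate 2, where HLA-DPB1 was at 0.25, HLA-DQB1 at 0.17 and HLA-DQA1 at 0.14. HLA-DQA1 was also lost without DMSO replicate 1 (0.08), DMSO replicate 3 (0.14) or 30 nM replicates 1, 2 or 4 (0.12 to 0.13). Its call was lost too with no low-count filter (0.11, adjusted p = 0.363), with the replicate block (0.13, adjusted p = 0.0629), with only the groups compared (0.12, adjusted p = 0.0534) and when Neg2 2 h replicate 1 and CDK-TCIP1 100 nM replicate 1 were both left out (0.11, adjusted p = 0.0704). At 100 nM the count was 8 without any 1 library. With counts scaled by transcript length 5 were called at 30 nM and 6 at 100 nM, and CD74, HLA-DRA, HLA-DRB1 and HLA-DQA1 were called higher at both doses.

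**Figure D2:**
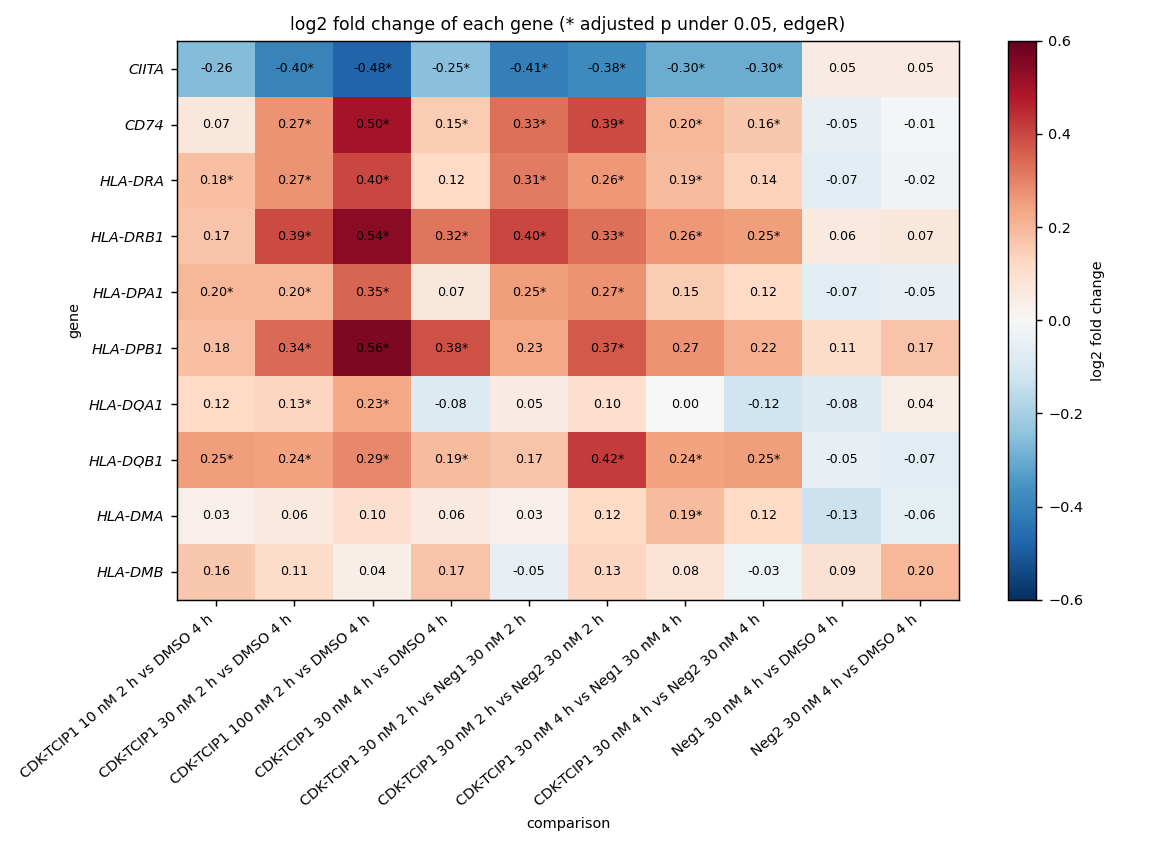
Colour shows the log2 fold change of each gene (rows) in each comparison (columns), with an asterisk where the adjusted p was under 0.05 in edgeR's test. CIITA was negative in the columns of CDK-TCIP1 against DMSO, Neg1 or Neg2, from -0.25 to -0.48, and HLA-DRB1 was positive in them, from 0.17 to 0.54.

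CDK-TCIP1 was also compared with Neg1 and Neg2 at the matched dose and time. At 30 nM for 2 h, 4 genes were called higher and 1 lower against Neg1, where 13.6% of all genes were called higher and 14.2% lower. Against Neg2, 6 were higher and 1 lower, where 14.8% of all genes were higher and 15.7% lower. At 4 h, 5 were higher and 1 lower against Neg1 (14.2% higher and 16.9% lower of all genes), and 3 were higher and 1 lower against Neg2 (14.4% higher and 16.8% lower of all genes). These comparisons share their CDK-TCIP1 libraries with those against DMSO.

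CIITA at 2 h was lower than with Neg1, at -0.41 ± 0.09 (log2, adjusted p = 0.000962, edgeR), with 54.6 and 53.6 CPM in Neg1 libraries. It was lower than with Neg2, at -0.38 ± 0.09 (adjusted p = 0.00132), with 50.7 and 55.8 CPM in Neg2 libraries. At 4 h its change was -0.30 ± 0.09 against Neg1 (adjusted p = 0.0134) and -0.30 ± 0.09 against Neg2 (adjusted p = 0.0143). With counts scaled by transcript length CIITA was not called against either compound, at -0.42 and -0.18 against Neg1 and Neg2 at 2 h and at -0.26 and -0.17 at 4 h. Without its longest transcript it was not called against Neg2 at 2 h (-0.26, adjusted p = 0.0988). The 2 h calls held when any 1 library was left out. The 4 h call was lost without CDK-TCIP1 replicate 3 (-0.27 against Neg1, -0.26 against Neg2) or either library of Neg1 (-0.32 and -0.29) or Neg2 (-0.31 and -0.32), and against Neg2 also without CDK-TCIP1 replicate 1 (-0.27).

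CD74 at 2 h was higher by 0.33 ± 0.05 against Neg1 (log2, adjusted p = 3.02e-05, edgeR) and by 0.39 ± 0.05 against Neg2 (adjusted p = 3.58e-06). Neg1 libraries held 1892 and 1835 CPM of CD74 at 2 h, and Neg2 libraries 1668 and 1922 CPM. At 4 h CD74 was higher by 0.20 ± 0.05 against Neg1 (adjusted p = 0.00518) and by 0.16 ± 0.05 against Neg2 (adjusted p = 0.0261). HLA-DRB1 was called in all 4, by 0.40 and 0.33 at 2 h and by 0.26 and 0.25 at 4 h, against Neg1 and Neg2 in turn. HLA-DRA was called in 3 of the 4, by 0.31 and 0.26 at 2 h and by 0.19 against Neg1 at 4 h, with 0.14 against Neg2 (adjusted p = 0.0534). HLA-DPA1 was called at 2 h (0.25 and 0.27), HLA-DPB1 against Neg2 at 2 h (0.37) and HLA-DQB1 in every one but that against Neg1 at 2 h (0.42 at 2 h, 0.24 and 0.25 at 4 h). HLA-DMA was called against Neg1 at 4 h only (0.19 ± 0.07, adjusted p = 0.0452). Its Neg1 libraries, at 97.5 and 106 CPM, were below its DMSO libraries.

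Single libraries decided several of these 4 h calls. Against Neg1 the count was 1 without Neg1 replicate 1, which ended the calls of HLA-DRA (0.17), HLA-DRB1 (0.22), HLA-DQB1 (0.13), HLA-DMA (0.13) and CIITA (-0.32). It was 3 without Neg1 replicate 2, where CD74 (0.19), HLA-DMA (0.24) and CIITA (-0.29) were lost. HLA-DQB1 against Neg1 was lost without CDK-TCIP1 replicates 1 (0.23) or 2 (0.22), and HLA-DMA without any 1 of the 5 libraries (0.13 to 0.24). Against Neg2 it was 0 without Neg2 replicate 1, where HLA-DRB1 was at 0.20, CD74 at 0.14 and HLA-DQB1 at 0.17, and 2 without CDK-TCIP1 replicate 1 (HLA-DQB1 at 0.24) or CDK-TCIP1 replicate 2 (HLA-DQB1 at 0.23, CD74 at 0.14). CD74 was lost against Neg2 without Neg2 replicate 2 as well (0.14), where HLA-DRA was called (0.20). At 2 h, HLA-DPB1 against Neg2 was lost without Neg2 replicate 1 (0.21) or 30 nM replicate 2 (0.31). With counts scaled by transcript length, HLA-DPB1 (0.49) and HLA-DQB1 (0.37) against Neg2 and HLA-DPA1 against Neg1 (0.17) were not called at 2 h.

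Neg1 and Neg2 themselves gave no call among the 10 genes. In edgeR's test 0 genes of the whole table passed (0%) for Neg1 or Neg2 against DMSO at 4 h, for Neg1 against Neg2 at 2 h or 4 h, or for 4 h against 2 h of either. At an unadjusted p under 0.05, 770 and 1063 of all genes lay apart for Neg1 and Neg2 against DMSO, 464 and 1126 for Neg1 against Neg2 at 4 h and 2 h, and 660 and 1667 for 4 h against 2 h of Neg1 and Neg2. DESeq2 called 1, 0, 1, 1, 1 and 16 genes in the same order, and none of the 10 described here. Among the 10, the number with an unadjusted p under 0.05 was 0 and 1, 0 and 1, and 2 and 0 in that order.

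For Neg1 against Neg2, 2 pairs of groups were compared at a matched dose and time. The 95% intervals of the 10 genes ran from -0.33 to 0.21 (log2) at 4 h and from -0.21 to 0.44 at 2 h, so differences within those bounds are not excluded. HLA-DQB1 at 2 h had the widest distance from 0, at 0.25 ± 0.09, with 79.3 and 86.9 CPM in Neg1 libraries, against 64.0 and 75.6 CPM in Neg2 libraries. Its adjusted p was 0.713 (edgeR). Against DMSO at 4 h the intervals ran from -0.27 to 0.36 for Neg1 and from -0.24 to 0.41 for Neg2. CIITA was at 0.05 ± 0.09 in both.

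Steps in dose and time within CDK-TCIP1 gave few calls. From 10 to 30 nM, CD74 alone was called (0.20 ± 0.05, log2, adjusted p = 0.0334, edgeR), so 1 was higher and 0 lower, where 0.8% of all genes were higher and 1.82% lower. The call was lost without either 10 nM library (0.15 and 0.25) or without 30 nM replicates 1, 2 or 4 (0.19 to 0.21), and with counts scaled by transcript length (0.16, adjusted p = 0.291). From 30 to 100 nM, 2 were higher and 0 lower, where 4.44% of all genes were higher and 8.45% lower. They were CD74 (0.23 ± 0.05, adjusted p = 0.00105) and HLA-DPA1 (0.15 ± 0.05, adjusted p = 0.0306). HLA-DPA1 was lost without 30 nM replicates 3 or 4 or 100 nM replicates 1 or 2 (0.13 to 0.15). Its call was also lost with no low-count filter (0.13), with the replicate block (0.15) and with counts scaled by transcript length (0.19). The same held with only the groups compared (0.16) and without both CDK-TCIP1 100 nM replicate 1 and Neg2 2 h replicate 1 (0.12). HLA-DRB1 and HLA-DRA, not called over these steps, were called under some alternatives. HLA-DRB1 was called over the first step without 30 nM replicate 3 (0.24) and with DESeq2 (0.22), among others. HLA-DRA was called over the second without 30 nM replicate 2 or 100 nM replicates 2 or 3 (0.15 to 0.17) and with DESeq2 (0.14), and HLA-DRB1 without 100 nM replicate 3 (0.22) and with DESeq2 (0.16). CIITA was at -0.14 ± 0.09 over the first step and at -0.08 ± 0.08 over the second, and neither passed.

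At 30 nM, 0 genes were higher and 2 lower at 4 h than at 2 h, where 10.3% of all genes were higher and 11.6% lower. HLA-DQA1 had 106, 104 and 105 CPM at 4 h, against 120, 124, 119 and 121 CPM at 2 h. Its change was -0.21 ± 0.05 (log2, adjusted p = 0.00261, edgeR), and was not called with counts scaled by transcript length (-0.18, adjusted p = 0.208). With Neg1, HLA-DQA1 also lay lower at 4 h (99.8 and 110 CPM) than at 2 h (114 and 121 CPM), without a call. With Neg2 the 2 times overlapped. HLA-DRA had 611, 593 and 623 CPM at 4 h, against 650, 703, 660 and 681 CPM at 2 h, a change of -0.14 ± 0.05 (adjusted p = 0.0229). That call was lost without 2 h replicates 2 or 4 (-0.12 and -0.14) or 4 h replicates 1 or 2 (-0.15 and -0.13). It was also lost with counts scaled by transcript length (-0.13) and with the replicate block (-0.14). HLA-DPA1 was called without 2 h replicate 3 (-0.15) and, like CD74, with DESeq2. CIITA was at 0.15 ± 0.08 (adjusted p = 0.207). It was also tested whether the contrast of CDK-TCIP1 with Neg1 and Neg2 (averaged) changed between 2 h and 4 h. It was called for 0 of the 10 genes and for 12% of all genes in either direction. The 95% intervals of the 10 ran from -0.33 to 0.31, with 1 of the 10 at an unadjusted p under 0.05 and 1 called by DESeq2. CD74 was called without Neg2 2 h replicate 2 (-0.24).

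CIITA has 18 annotated transcripts. Those whose starts lie within 100 bases of 10877198 held 96.6% to 99.5% of its counts in each library. The longest transcript, ENST00000324288, ends in an exon of 12511 bases (10923878 to 10936388), of which 830 bases lie opposite exons of DEXI, a gene on the minus strand. DEXI itself was lower at 4 h, at 12.7, 13 and 11.9 CPM in CDK-TCIP1 libraries, against 21.0, 19.6 and 21.9 CPM in DMSO libraries (-0.73 ± 0.11, log2, adjusted p = 5.57e-06, edgeR). Its part in the CIITA values was not tested with strand.

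**Figure D3:**
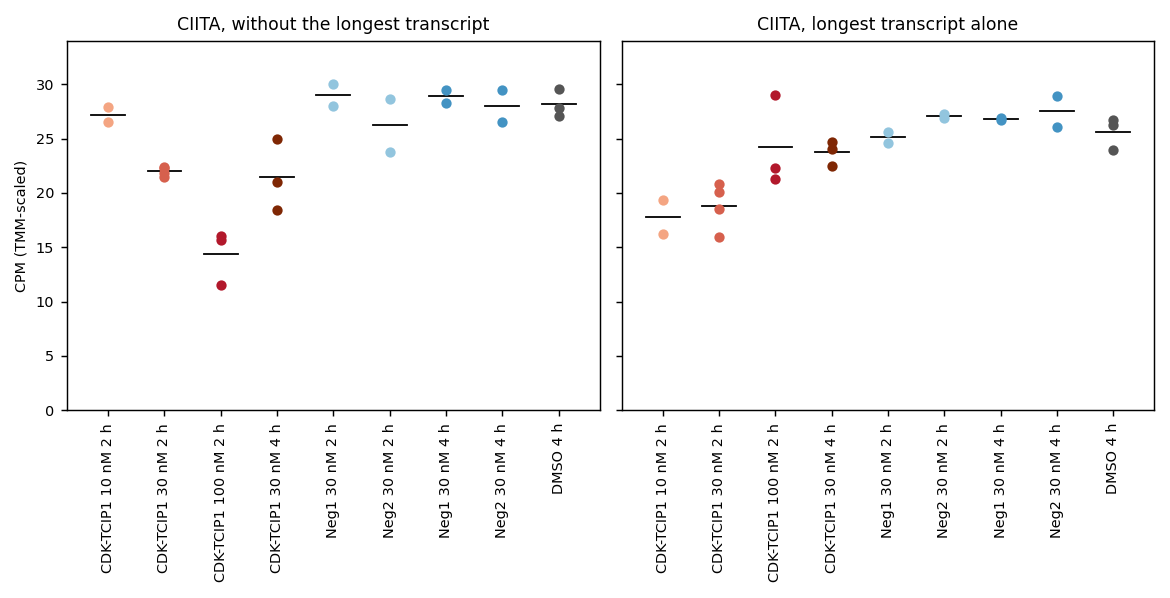
CIITA level (CPM after TMM scaling, vertical axes) in each library (points) with group means (lines), for the longest transcript alone and for the sum of its other transcripts, over the 9 groups. At 100 nM the other transcripts lay at 11.5 to 16 CPM, below DMSO at 27.1 to 29.6 CPM, whereas the longest lay at 21.3 to 29 CPM, overlapping DMSO at 23.9 to 26.7 CPM.

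The CIITA transcripts did not move alike. Without the longest, CIITA had 26.5 and 27.9 CPM at 10 nM, 21.5, 21.8, 22.3 and 22.4 CPM at 30 nM for 2 h, and 11.5, 15.7 and 16 CPM at 100 nM. At 30 nM for 4 h it had 21.0, 25.0 and 18.4 CPM, against 29.6, 27.1 and 27.8 CPM in DMSO libraries. The change from DMSO was -0.05 ± 0.12 at 10 nM (log2, adjusted p = 0.849), -0.36 ± 0.10 at 30 nM (adjusted p = 0.00701), -0.97 ± 0.11 at 100 nM (adjusted p = 1.57e-07) and -0.39 ± 0.11 at 30 nM for 4 h (adjusted p = 0.00561, edgeR). From 30 to 100 nM it was lower again, at -0.61 ± 0.11 (adjusted p = 0.000538).

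The group means of the longest CIITA transcript had the opposite order over dose at 2 h. The longest transcript had 19.3 and 16.2 CPM at 10 nM, 20.8, 18.5, 15.9 and 20.1 CPM at 30 nM for 2 h, and 21.3, 29 and 22.3 CPM at 100 nM, against 26.7, 26.2 and 23.9 CPM in DMSO libraries. It was lower, at -0.53 ± 0.12 at 10 nM (log2, adjusted p = 0.00494) and at -0.44 ± 0.10 at 30 nM (adjusted p = 0.00136). At 100 nM it was at -0.08 ± 0.11 (adjusted p = 0.598), and it rose by 0.36 ± 0.10 from 30 to 100 nM (adjusted p = 0.0215, edgeR). From 10 to 30 nM neither part was called, at 0.09 ± 0.12 for the longest (adjusted p = 0.771) and -0.31 ± 0.12 for the others (adjusted p = 0.164, edgeR). At 30 nM for 4 h the longest had 22.5, 24 and 24.7 CPM. It was at -0.11 ± 0.11 against DMSO (adjusted p = 0.462) and at 0.33 ± 0.10 against 2 h (adjusted p = 0.0207, edgeR). These are estimates of transcripts that share most of their sequence. The split of the gene was chosen after the values were seen.

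Transcripts annotated as retaining an intron exist for 8 of the 10 genes, and in 3295 tested genes they averaged 1 CPM or more, these 8 included. At 100 nM their summed level was below every DMSO library in 5 of the 8 and above in 0, where 21.5% of the 3295 lay below and 18.1% above. For CIITA it was 1.97 ± 0.62 CPM at 100 nM and 7.44 ± 1.83 CPM in DMSO libraries (SD, n = 3 each). For HLA-DQA1 it was 10.3 ± 0.832 CPM and 16.6 ± 0.305 CPM, and for HLA-DQB1 2.78 ± 1.04 CPM and 7.01 ± 1.61 CPM. HLA-DPA1 and HLA-DMA were the others. For CD74 it was 13.5 ± 10.9 CPM at 100 nM and 22.4 ± 5.61 CPM in DMSO libraries, with overlap. At 10 nM, 2 of the 8 were below, CIITA and HLA-DQA1, and 1 above, where 15.2% of the 3295 lay below and 19.6% above. The gene above was CD74, with 71.9 ± 27.5 CPM at 10 nM (SD, n = 2). At 30 nM for 2 h 3 of the 8 were below and 0 above, where 10.8% of the 3295 lay below and 16.4% above. At 30 nM for 4 h 2 of the 8 were below, CIITA and HLA-DQA1, and 0 above, where 9.41% lay below and 25.4% above. No test was made of these sums.

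Of 10 further class II genes, 5 were tested. At 4 h against DMSO, where 17.5% of all genes were called higher and 19.3% lower, 0 were lower and 1 was higher. It was HLA-DRB5, a second beta chain of HLA-DR, with 202, 207 and 205 CPM in CDK-TCIP1 libraries, against 161, 155 and 166 CPM in DMSO libraries (0.35 ± 0.07, log2, adjusted p = 0.000249, edgeR). At 100 nM HLA-DRB5 was at 0.61 ± 0.07 (adjusted p = 1.01e-07). HLA-DOA and HLA-DOB, the chains of the inhibitor of HLA-DM, were at -0.11 and 0.19 at 4 h and did not pass. At 2 h 0 of the 5 were called at 10 nM (5.93% of all genes higher and 7.12% lower). At 30 nM 2 were higher and 1 lower (16.7% and 17.6%), and at 100 nM 1 was higher and 1 lower (20.6% and 22%).

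Of 12 genes of the complex that carries CIITA and its co-activators, all tested, 0 were higher and 6 lower at 30 nM for 4 h against DMSO, where 17.5% of all genes were higher and 19.3% lower. At 2 h, 0 were higher and 4 lower at 10 nM (5.93% and 7.12% of all genes), 2 higher and 6 lower at 30 nM (16.7% and 17.6%), and 4 higher and 6 lower at 100 nM (20.6% and 22%). RFXAP, a subunit of RFX, had 7.05, 5.98 and 8.10 CPM in CDK-TCIP1 libraries at 4 h, against 20.2, 23 and 23 CPM in DMSO libraries (-1.65 ± 0.18, log2, adjusted p = 5.64e-08, edgeR). It was also lower at each dose at 2 h, at -1.10 ± 0.20 at 10 nM, -1.22 ± 0.16 at 30 nM and -1.06 ± 0.17 at 100 nM. RFX5, the largest subunit of RFX, had 148, 134 and 154 CPM at 4 h, against 141, 147 and 144 CPM in DMSO libraries (0.01 ± 0.05).

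NFYA, the CCAAT-reading subunit of NF-Y, was lower at each dose, at -0.29 ± 0.08 at 10 nM, -0.66 ± 0.07 at 30 nM and -1.08 ± 0.08 at 100 nM (log2, all called by edgeR). It had 32.2, 39.0 and 37.0 CPM at 100 nM, against 72.1, 76.9 and 79.2 CPM in DMSO libraries. CREB1 was lower, at -0.33 ± 0.06, -0.72 ± 0.05 and -1.11 ± 0.06 at the same doses, with 38.9, 34.9 and 37.0 CPM at 100 nM, against 78.0, 81.6 and 79.5 CPM in DMSO libraries. EP300, a histone acetyltransferase that works with CIITA, was lower, at -0.45 ± 0.12, -0.58 ± 0.10 and -1.02 ± 0.11. CREBBP, its paralogue, was at -0.25 ± 0.09 at 10 nM (not called), and was lower, at -0.26 ± 0.08 at 30 nM and -0.42 ± 0.09 at 100 nM. At 4 h NFYA and CREB1 were both lower, at -0.38 (± 0.07 and ± 0.06), EP300 was lower, at -0.33 ± 0.11, and CREBBP was at -0.21 ± 0.08 (adjusted p = 0.0579). Other genes of the 12 rose, with 4 called higher at 100 nM for 2 h. Among them were CARM1 and SMARCA4, a methyltransferase and a remodelling ATPase, which were also higher at 30 nM for 2 h.

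**Figure D4:**
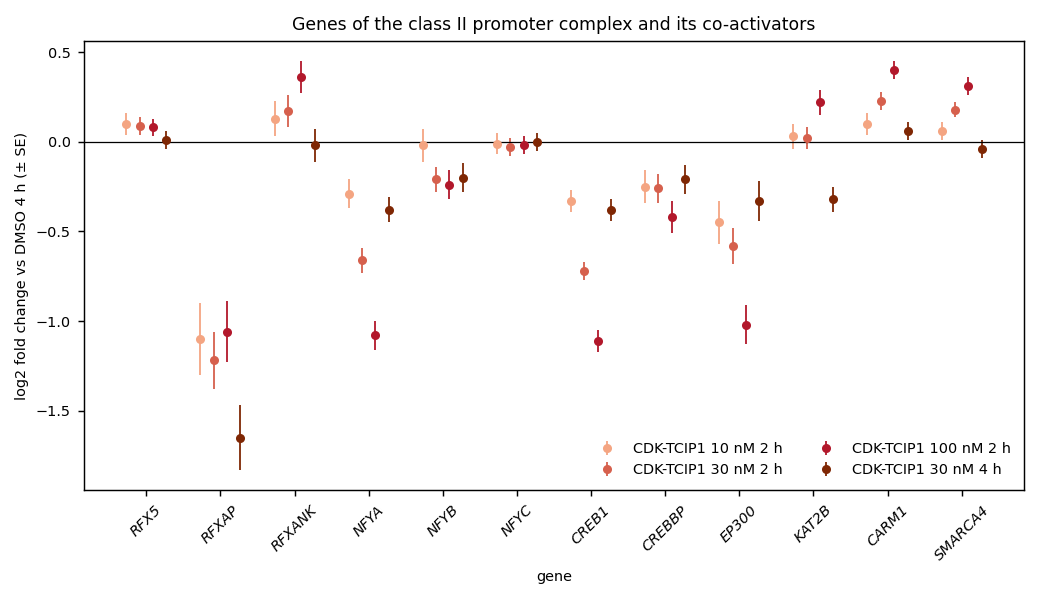
Log2 fold change against DMSO (vertical axis, bars are SE) of genes of the class II promoter complex and its co-activators (horizontal axis) for 10, 30 and 100 nM CDK-TCIP1 at 2 h and 30 nM at 4 h. RFXAP lay between -1.65 and -1.06 in all 4, and NFYA and CREB1 were lower at each higher dose, to -1.08 and -1.11.

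Of 20 regulators of CIITA or of its target genes, 18 were tested, and 2 were higher and 6 lower at 4 h, where 17.5% of all genes were higher and 19.3% lower. BCL6, the repressor that CDK-TCIP1 binds, had 338, 335 and 352 CPM in CDK-TCIP1 libraries, against 410, 393 and 400 CPM in DMSO libraries (-0.23 ± 0.05, log2, adjusted p = 0.000269, edgeR). PAX5, a B cell factor that activates CIITA, had 154, 236 and 155 CPM, against 241, 236 and 271 CPM in DMSO libraries (-0.46 ± 0.12, adjusted p = 0.00419). IRF1, an activator downstream of interferon, was lower, at -0.62 ± 0.12 at 4 h and at -1.45 ± 0.12 at 100 nM for 2 h, where it had 10.9, 17.2 and 13.7 CPM, against 40, 38.3 and 35.9 CPM in DMSO libraries. IRF8, a B cell and myeloid factor, was higher by 0.16 ± 0.04 (adjusted p = 0.00297) and E2F1 by 0.28 ± 0.06 (adjusted p = 0.000464). PRDM1, which silences CIITA in plasma cells, was at 1.58 ± 0.72 (adjusted p = 0.0905) with 0.506 to 1.22 CPM, and SPI1 was at -0.10. IRF4 did not pass the filter on low counts. At 2 h the counts of higher and lower regulators were 1 and 2 at 10 nM (5.93% and 7.12% of all genes), 4 and 6 at 30 nM (16.7% and 17.6%), and 5 and 8 at 100 nM (20.6% and 22%).

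Of 14 genes of endosomal processing, 12 were tested, and 0 were higher and 5 lower at 4 h, where 17.5% of all genes were higher and 19.3% lower. CTSC, a lysosomal protease, was lower, at -0.66 ± 0.09, and so was SPPL2A, the protease that cuts the CD74 remnant in the membrane, at -0.47 ± 0.07 (log2, edgeR). At 2 h 1 was higher and 0 lower at 10 nM (5.93% and 7.12% of all genes), 3 and 1 at 30 nM (16.7% and 17.6%), and 5 and 2 at 100 nM (20.6% and 22%). Of 16 genes of class II turnover, 1 was higher (RAB7A, a late endosome GTPase, 0.15 ± 0.05) and 4 lower at 4 h. Over all genes 17.5% were higher and 19.3% lower there. Among the lower were CD82 (-0.43 ± 0.09) and TMEM127 (-0.25 ± 0.08). At 2 h the counts were 1 higher and 1 lower at 10 nM, 4 and 3 at 30 nM, and 7 and 5 at 100 nM, beside the shares of all genes just given. TMEM127 was lower, at -1.32 ± 0.09 at 100 nM.

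Of 15 surface molecules by which B cells address T cells, 2 were higher and 4 lower at 4 h, where 17.5% of all genes were higher and 19.3% lower. CD70 and TNFSF9, ligands of the tumour necrosis factor family, were higher by 0.41 ± 0.08 and 0.37 ± 0.09 (log2, edgeR). ITGAL, the alpha chain of LFA-1, had 25.7, 30.1 and 28.2 CPM in CDK-TCIP1 libraries, against 68.2, 66.2 and 56.1 CPM in DMSO libraries (-1.18 ± 0.09). CD83, known to stabilise class II at the surface, had 9.55, 9.84 and 8.75 CPM, against 18.8, 20.9 and 23.1 CPM in DMSO libraries (-1.16 ± 0.11). At 2 h the counts were 0 higher and 3 lower at 10 nM (5.93% and 7.12% of all genes), 1 and 5 at 30 nM (16.7% and 17.6%), and 1 and 5 at 100 nM (20.6% and 22%).

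At 4 h, some markers of cell state changed beside the class II genes, where 17.5% of all genes were called higher and 19.3% lower. The marker sums here are CPM on the library total, without TMM scaling, whereas the calls are from the TMM-scaled fit. Relative to DMSO, the median tested gene at 100 nM for 2 h lay at -0.14 (log2) on that unscaled CPM and at 0.02 with TMM. B cell markers summed to 1793 to 1970 CPM in CDK-TCIP1 libraries at 4 h, against 2174 to 2270 CPM in DMSO libraries, with 3 of 6 called lower, among them MS4A1 (-0.45 ± 0.05, log2, edgeR). Plasma cell markers summed to 175 to 192 CPM, against 263 to 274 CPM in DMSO libraries, with 1 of the 3 tested lower (JCHAIN, -0.69 ± 0.06). At 2 h the B cell sums were 2100 to 2279, 2098 to 2227 and 2162 to 2272 CPM at 10, 30 and 100 nM. On the unscaled CPM they overlapped DMSO, and overlap after TMM scaling was not examined. Of the 6 genes, 0, 2 and 3 were called higher and 0, 1 and 1 lower. Over all genes, 5.93%, 16.7% and 20.6% were higher and 7.12%, 17.6% and 22% lower at those doses. The plasma cell sums were 264 to 271, 240 to 267 and 246 to 280 CPM, also overlapping DMSO on the unscaled CPM. Of the plasma cell markers 0 were called at 10 and 30 nM, and 1 was higher and 1 lower at 100 nM. Of the myeloid and dendritic markers 5 were tested, at 4 h with 1 higher (FCGR1A) and 1 lower (CD1C). Of the T and NK markers 2 were tested and 0 called. Their part in the class II values was not tested.

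The genes outside these lists whose mean log2 levels over the 9 groups were most like those of CIITA, among 9341 genes, were BCORL1 (Pearson r = 0.996), DOK1 (0.995), PAGR1 (0.995), NUP35 (0.994) and SPOUT1 (0.994). Those most like HLA-DRA were CHST11 (0.994), RPS7 (0.994), RAC1 (0.991), EIF3H (0.991) and XRCC6 (0.991). The groups share their libraries and scaling, so these values describe 9 points.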

How the data were processed

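RNA of 23 SUDHL5 libraries was analysed from transcript tables. Estimated counts and TPM (length-corrected abundance) per transcript were deposited by the authors. FastQC, cutadapt, kallisto and DESeq2 are named in the submitters' processing notes; their versions and the transcript release were not given in the sources used here. Of 227912 transcripts, 205964 were matched by ID to GENCODE 29 (GRCh38), which left out 1.16% to 1.28% of counts, and values were summed over 58592 genes. Estimated counts were rounded. Genes past filterByExpr (17743) were fitted with edgeR 4.0.16 in R 4.3.3 (quasi-likelihood F test, TMM, all 23 libraries, 9 group coefficients, 14 residual degrees of freedom, common biological coefficient of variation 0.0988), with Benjamini-Hochberg adjustment over all genes. Fold changes are on the log2 scale. The procedure was tested on simulated data.

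Replicates differed beyond sampling noise (chi-square per degree of freedom 4.32 to 14.2), so each library counted as 1 sample. Alternatives were RLE size factors, DESeq2 1.42.0, no filter, only the groups compared, length-scaled counts, a replicate block and libraries left out. Added after seeing the data were HLA-DRB1 with HLA-DRB5, CIITA without its longest transcript, CPM without TMM and unadjusted TPM. The members and lists were chosen with earlier results of these data known. Named genes were the 10 members, from each list the 2 called genes that rose and the 2 that fell most at 30 nM for 4 h against DMSO, 10 regulators in any case, and for CIITA and HLA-DRA the 5 protein-coding genes most alike (log2 CPM averaging 2 or more). DEXI, HLA-DOA, HLA-DOB, CARM1, SMARCA4 and other genes outside this rule were chosen after their values were seen. Upstream sequences are RefSeq's, on GRCh38.p14.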

Additional observations from a re-analysis of the deposited data

Results flagged for a closer look

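HLA-DMA in CDK-TCIP1 30 nM 2 h replicate 2 lay apart from the other libraries of its group. It had 124 CPM, against 113, 113 and 114 CPM in the others, and the gap to the nearest library was 0.930 of the range of the 4 log2 values, above the 95% critical value of Dixon's test. Chance alone passes that value in about 1 in 20 groups, and 10 such groups were examined.

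CD74 differed in opposite directions over time with CDK-TCIP1 and with Neg2, and neither difference passed edgeR's test, though DESeq2 called the first. At 30 nM the difference of 4 h minus 2 h was -0.12 on the log2 scale with CDK-TCIP1 (adjusted p = 0.0656, edgeR), with every library at 4 h below every library at 2 h. With Neg2 it was 0.11 (adjusted p = 0.594), with both libraries at 4 h above both at 2 h (1933 and 1936 CPM, against 1668 and 1922 CPM), so that value rests on the Neg2 2 h library of 1668 CPM. With Neg1 it was 0.01. The difference from Neg2 alone was not tested. Against the mean of Neg1 and Neg2 it was -0.18 ± 0.06 (adjusted p = 0.0624, edgeR).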

How the results depend on the processing

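Of the counts of called genes under the alternatives, 211 stayed within 1.5 times and 58 did not. Of the single gene values with a test 2202 kept their direction and side of the threshold, 123 were no longer called, 41 were newly called and 0 changed direction among called values. On unadjusted TPM, with no test, 9 called rises were below 0: HLA-DQB1 at 10 nM (-0.06), 30 nM (-0.03) and 100 nM for 2 h (-0.16) and at 30 nM for 4 h (-0.07), HLA-DPA1 at 30 nM (-0.07) and 100 nM for 2 h (-0.04), HLA-DRA (-0.02) and HLA-DQA1 (-0.03) at 100 nM, and CD74 at 30 nM for 4 h (-0.01). That scale moved the median gene too, by -0.38 at 100 nM. Without TMM 23 of the values stayed within the spread of DMSO libraries and 17 moved. On unadjusted TPM only 3 of the same values stayed, 28 moved, and the 9 named above were reversed. Counts of called genes with no filter on low counts were 3 at 30 nM 4 h against DMSO, 3 against Neg1 at 4 h, 0 at 10 nM and 1 from 30 to 100 nM. With length-scaled counts they were 1 at 4 h against DMSO, 3 against Neg1, 1 against Neg2, 3 at 30 nM 2 h against Neg1, 0 at 10 nM, 5 at 30 nM for 2 h, and 0, 1 and 0 for 10 to 30 nM, 30 to 100 nM and 4 h against 2 h. Without CDK-TCIP1 100 nM replicate 1 and Neg2 2 h replicate 1, and also with only the groups compared, they were 5 at 10 nM, 2 from 10 to 30 nM, 1 from 30 to 100 nM and 4 for 4 h against 2 h. DESeq2 gave 2, 4 and 4 for those last 3 and 1 for the difference over time against Neg1 and Neg2. Replicate numbers did not pair the libraries: the median correlation of same-numbered libraries was 0.01 over 78 pairs, against -0.01 over 155 others. With the replicate block the counts were 2 from 10 to 30 nM, 1 from 30 to 100 nM and 1 for 4 h against 2 h, and 5 at 4 h against DMSO. Leaving out each library in turn gave 2 to 4 at 4 h against DMSO, 1 to 4 against Neg1, 0 to 3 against Neg2, 5 to 6 and 6 to 7 at 2 h against Neg1 and Neg2, 0 to 2 at 10 nM, 5 to 8 at 30 nM and 8 to 8 at 100 nM for 2 h, 0 to 2, 1 to 4 and 1 to 3 for the steps of dose and time, and 0 to 1 for the difference over time. The cause of these changes was not tested. Estimated counts do not give their own error here, which limits the CIITA transcript values.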
